A study of Homo sapiens with 4 samples.

Results

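The genes described here are 30 protein-coding genes that were expressed at a low level in LM2 cells and were nearly silent after knockdown of hnRNPM. LM2 is a clonal lung metastatic derivative of MDA-MB-231, a mesenchymal human breast cancer line. The genes were chosen by measured values: at least 1 RPKM (reads per kilobase of transcript, scaled to the read total) in both control libraries and under 0.4 RPKM in both knockdown libraries. They were 30 of the 9253 protein-coding genes with at least 1 RPKM in both control libraries (0.324%), of 16327 protein-coding genes and of 36525 genes in all. Because the same values chose them, the difference of each gene between the groups is given below as a description, with no test, and nothing is read from their number. Turned round, the same thresholds were met by 37 of the 9006 protein-coding genes with at least 1 RPKM in both knockdown libraries (0.411%).

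The series held 4 RNA sequencing libraries, 2 of LM2 cells with hnRNPM knockdown and 2 of control LM2 cells, each numbered 1 and 2. All cells grew in DMEM with 10% fetal bovine serum and were collected 48 h after plating. The knockdown agent is called an expressed short hairpin RNA in one label and an siRNA in another, and what the control cells received is not stated in the labels. No label tells whether replicates were grown as separate cultures. The p-values below therefore speak only of the spread among these 4 libraries, part or all of which may be technical.

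hnRNPM is an abundant nuclear RNA-binding protein that binds GU-rich stretches of pre-mRNA and takes part in the choice of exons, including exons of CD44 that change between epithelial and mesenchymal states. RNA sequencing measures the amount of RNA that is present, which depends on how much is made and how much is degraded. A gene near silence contributes few reads, so its level is known less precisely than that of an abundant gene.

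HNRNPM itself (ENSG00000099783) measured 88.6 and 102 RPKM in control and 11.5 and 13.0 RPKM in knockdown cells. This was 7.80-fold lower, a log2 fold change of −2.91 ± 0.17 (SE, limma adjusted p = 1.48e-59), in the direction the labels give. Estimated reads per library ran from 16.5 M to 26.6 M. The 6 fixed markers of LM2 cells were all at or above 1 RPKM in all 4 libraries. Of the immune markers, PTPRC and CD3E were at or under 0.0159 RPKM in all libraries, while CD14 rose and CD68 fell by limma. The summed RPKM of the 7 epithelial markers was 11.0 and 12.3 in control and 16.8 and 19.0 in knockdown libraries. Of them KRT18 rose by limma, EPCAM and KRT19 did not pass, and the others were too low for the test. The 4 fibroblast markers summed to 0.266 and 0.345 against 2.81 and 2.96 RPKM. LUM and PDGFRB were higher there, while DCN and PDGFRA were at or under 0.013 RPKM in all libraries. The 3 neuronal markers analysed summed to 2.04 and 2.39 against 3.70 and 3.81 RPKM, and TUBB3 of these rose by limma. The 4 luminal markers summed to 2.33 and 2.56 against 2.33 and 2.59 RPKM. The sum of the 3 endothelial markers analysed was at or under 0.435 RPKM in every library. The part of these shifts in the levels described below was not tested. In bulk RNA, fewer cells that express a gene and less RNA per cell cannot be told apart.

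The control means of the 30 genes ran from 1.02 to 2.41 RPKM with a median of 1.28 RPKM. Their knockdown means ran from 0.0531 to 0.379 RPKM with a median of 0.305 RPKM. Knockdown means were 3.17-fold to 19.1-fold lower than control means, with a median of 5.33-fold. For 17 genes the fold was over 5, and for TMEM121 and ACTG2 it was over 10. PADI4 and SUMF1 alone had a control mean of at least 2 RPKM. None of the 30 was listed at 0 in any library, and 8 had a knockdown mean under 0.2 RPKM. The 30 genes therefore sat just above the lower limit in the control cells and kept a measurable remainder, a median of 18.8% of the control level, after knockdown.

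**Figure D1:**
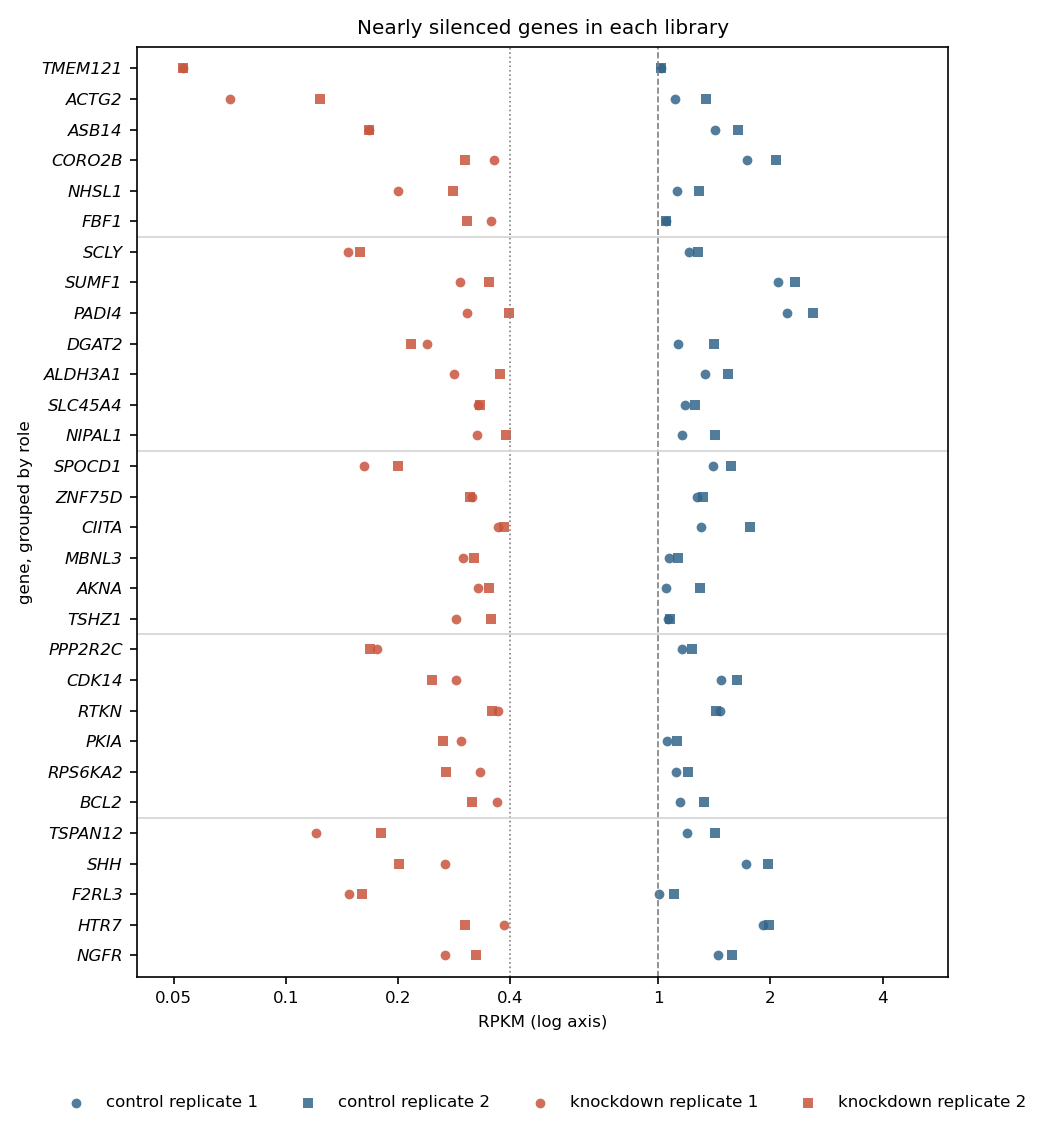
RPKM on a log axis of the 30 nearly silenced genes in each of the 4 libraries, grouped by role, with control libraries in blue, knockdown libraries in red, replicate 1 as circles and replicate 2 as squares. The dashed line marks the control limit of 1 RPKM and the dotted line the knockdown limit of 0.4 RPKM, and TMEM121 and ACTG2 lie farthest to the left in the knockdown libraries.

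The gap between the groups is set by the rule. The spread within a group is limited by it in part, since both libraries of a group had to meet the limit, so close replicates are no independent result. The higher control value exceeded the lower by at most 1.35 times (median 1.11) and the higher knockdown value exceeded the lower by at most 1.75 times (median 1.17). Control replicate 2 was the higher control for 27 of the 30 genes, the 2 were equal for TMEM121 and FBF1, and RTKN alone was lower. The RPKM of all genes also summed to more in control replicate 2 (187293) than in control replicate 1 (162466). The steps between low values point to 1 read total used for both libraries of a group, so depth differences within a group remain in the RPKM values. No protein-coding gene went from at least 1 RPKM in 1 control library to under 0.4 RPKM in the other, and 1 gene (SMIM6) did so between the knockdown libraries. Between a control and a knockdown library, 34 to 72 genes did so.

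More genes met the thresholds in only part of the libraries. Control and knockdown replicate 1 alone met them for 56 genes, which include the 30. Of the others, 24 reached 0.4 RPKM in knockdown replicate 2 and 3 were under 1 RPKM in control replicate 2. Control and knockdown replicate 2 alone met them for 44 genes, again including the 30. Estimated reads of replicates differed by little more than sampling noise, with a mean chi-square per gene of 1.33 between the controls and 1.32 between the knockdown libraries, so a replicate is no independent check of the choice. Leaving out knockdown replicate 2 from the choice gave 53 genes, the largest change on leaving out a library.

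Genes on either side of the limits had similar values. Just inside the control limit, the lower control value was 1.01 RPKM for F2RL3, 1.02 for TMEM121, 1.05 for FBF1 and 1.05 for AKNA. Just outside it were RUNX3 at 0.990, APOC1 at 0.984, DFFB at 0.978 and MNS1 at 0.957 RPKM. Just inside the knockdown limit, the higher knockdown value was 0.397 RPKM for PADI4, 0.389 for NIPAL1, 0.386 for HTR7 and 0.385 for CIITA. Just outside it were C1QL1 at 0.405, KHK at 0.408, AHCYL2 at 0.411 and SMIM14 at 0.412 RPKM. The boundary of the set is thus a matter of a few hundredths of an RPKM for these 16 genes.

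**Figure D2:**
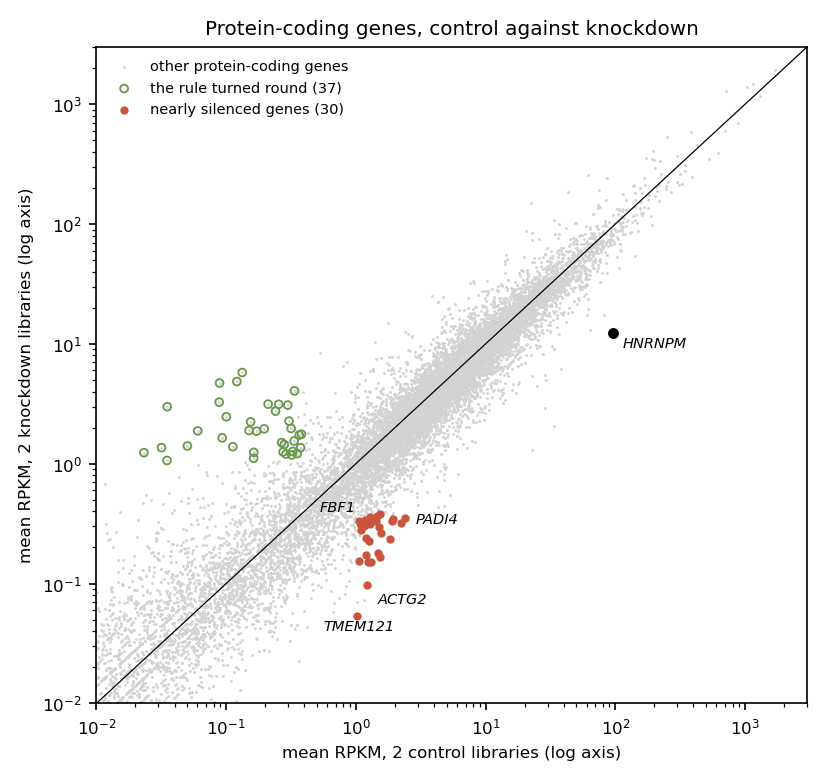
Mean RPKM of protein-coding genes in the 2 control libraries (x, log axis) against the 2 knockdown libraries (y, log axis), with the 30 nearly silenced genes as red dots, the 37 genes that meet the reverse thresholds as green circles, and the diagonal marking equal levels. The red dots lie between control means of 1.02 and 2.41 RPKM, with TMEM121 lowest on the y axis, and HNRNPM is drawn in black.

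The deepest reductions were in TMEM121 and ACTG2. TMEM121 (ENSG00000184986), which encodes a transmembrane protein, measured 1.02 RPKM in both controls and 0.0531 RPKM in both knockdown libraries, 19.1-fold lower. These values correspond to 81 reads in each control and 3 reads in each knockdown library. The nominal 95% counting interval of the fold, from the summed 162 and 6 reads, was 8.59 to 52.9. It covers counting error only. It takes no account of the choice of the gene by these same values, so it is no test of the fall. ACTG2 (ENSG00000163017), the enteric smooth muscle gamma actin, was at 1.11 and 1.34 RPKM in control and at 0.0708 and 0.124 RPKM in knockdown libraries, 12.6-fold lower. It was counted with 177 and 214 reads in control and 8 and 14 in knockdown libraries. The nominal 95% counting interval of its fold, with the same limits, was 8.19 to 20.3. The rule itself keeps the control and knockdown values of both genes apart.

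The 3 genes with the next largest folds were ASB14, TSPAN12 and SPOCD1. ASB14 (ENSG00000239388), an ankyrin repeat protein with a SOCS box of the kind that recruits ubiquitin ligase components, was at 1.42 and 1.64 RPKM in control and at 0.167 RPKM in both knockdown libraries, 9.16-fold lower. TSPAN12 (ENSG00000106025), a tetraspanin that strengthens Norrin signalling through the receptor FZD4, was at 1.19 and 1.42 RPKM in control and at 0.12 and 0.180 RPKM in knockdown libraries, 8.68-fold lower. SPOCD1 (ENSG00000134668), a nuclear protein required for piRNA-directed DNA methylation in the mouse male germ line, was at 1.41 and 1.56 RPKM in control and at 0.162 and 0.20 RPKM in knockdown libraries, 8.21-fold lower. In all 3 the lower control was at least 6.61 times the higher knockdown value.

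The promoters of these 5 genes, which had the largest folds, are shown so that their differences in composition can be seen. Each runs from 250 bases before to 50 bases after the RefSeq start on the gene's own strand, 5′ to 3′, from RefSeq on GRCh38.p14; the deposited values were made on another build. Capitals mark matches on either strand to any of 10 searched motifs: TATAAA (bound by TBP, the TATA box), GGGCGG (GC box), CCAAT (bound by NF-Y), TGANTCA (AP-1), TGACGTCA (cyclic AMP response element), CACGTG (E-box), GGAATG (TEAD), CCGGAAG (ETS), TTCNNNGAA (STAT) and CAGACA (SMAD). The intervals are chr14:105526855-105527154 on the plus strand for TMEM121, chr2:73892758-73893057 plus for ACTG2, chr3:57278903-57279202 minus for ASB14, chr7:120858095-120858394 minus for TSPAN12 and chr1:31815973-31816272 minus for SPOCD1.
TMEM121: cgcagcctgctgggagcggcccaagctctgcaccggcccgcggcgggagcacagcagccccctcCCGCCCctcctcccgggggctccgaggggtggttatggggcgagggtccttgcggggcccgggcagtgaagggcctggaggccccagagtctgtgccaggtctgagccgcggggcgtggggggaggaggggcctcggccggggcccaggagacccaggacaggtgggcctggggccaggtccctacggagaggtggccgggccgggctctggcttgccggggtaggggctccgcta
ACTG2: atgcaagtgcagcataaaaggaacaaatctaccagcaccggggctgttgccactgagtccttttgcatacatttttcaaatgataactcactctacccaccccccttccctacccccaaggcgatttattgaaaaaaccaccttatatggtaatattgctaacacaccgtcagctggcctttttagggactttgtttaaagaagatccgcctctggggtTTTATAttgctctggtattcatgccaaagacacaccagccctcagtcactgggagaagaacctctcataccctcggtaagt
ASB14: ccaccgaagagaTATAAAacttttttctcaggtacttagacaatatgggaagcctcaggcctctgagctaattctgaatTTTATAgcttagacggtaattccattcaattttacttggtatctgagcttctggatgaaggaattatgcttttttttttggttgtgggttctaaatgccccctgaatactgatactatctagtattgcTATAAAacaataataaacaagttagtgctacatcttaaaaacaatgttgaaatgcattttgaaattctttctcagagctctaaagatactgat
TSPAN12: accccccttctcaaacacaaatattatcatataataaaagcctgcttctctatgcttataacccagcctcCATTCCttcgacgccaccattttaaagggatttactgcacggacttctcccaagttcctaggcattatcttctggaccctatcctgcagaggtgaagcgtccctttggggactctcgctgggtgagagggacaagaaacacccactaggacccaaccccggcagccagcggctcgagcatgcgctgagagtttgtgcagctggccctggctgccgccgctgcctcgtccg
SPOCD1: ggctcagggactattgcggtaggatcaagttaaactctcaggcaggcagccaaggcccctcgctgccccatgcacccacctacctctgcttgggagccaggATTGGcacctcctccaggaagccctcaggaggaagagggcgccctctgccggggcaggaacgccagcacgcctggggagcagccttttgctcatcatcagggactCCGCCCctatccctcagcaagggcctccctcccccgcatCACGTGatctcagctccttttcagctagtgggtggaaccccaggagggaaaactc

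The 5 promoters differed in base composition. TMEM121 had a GC content of 76.7% and 22 CpG, with 1 GC box match whose first base lies at −186 from the start, read on the opposite strand. ACTG2 had a GC content of 45.7% and 5 CpG, with a TATA box match at −31, read on the opposite strand. ASB14 had a GC content of 33.7% and 2 CpG, with TATA box matches at −238, −171 and −43. Of these, the match at −171 is read on the opposite strand. TSPAN12 had a GC content of 54.3% and a TEAD match at −180, read on the opposite strand. SPOCD1 had 62.7%, with matches to CCAAT at −149 and the GC box at −44, both read on the opposite strand, and to the E-box at −5. No printed match overlapped another. Among the 7551 other protein-coding genes with both controls at or above 1 RPKM and a promoter entry, TATAAA was found in 4.79%, GGGCGG in 72.5%, CCAAT in 37.5%, CACGTG in 10.8% and GGAATG in 10.8%. Over all 27305 promoters of the table the shares were 12.0%, 44.6%, 35.7%, 7.43% and 14%. A match is a description of letters only. RefSeq promoters matched 22 of the 30 genes, and SLC45A4, DGAT2, NGFR, ALDH3A1, NIPAL1, PKIA, CIITA and TSHZ1 had no entry. Entries existed for 73.3% of the 30 genes, beside 81.9% of the other protein-coding genes with both controls at or above 1 RPKM. With entries missing from both sets, a comparison of their promoter composition or motifs could be biased and is not given.

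Among the secreted ligand and the receptors, 5 genes in all, folds ran from 5.10 to 8.68. SHH, the Sonic hedgehog ligand that patterns embryonic tissues, was at 1.72 and 1.98 RPKM in control and at 0.268 and 0.201 RPKM in knockdown libraries, 7.88-fold lower. It was counted with 362 and 417 reads in control and 40 and 30 in knockdown libraries, so the remainder was well above 0. HTR7, a serotonin receptor that raises cyclic AMP, was at 1.91 and 1.98 RPKM in control and at 0.386 and 0.303 RPKM in knockdown libraries, 5.65-fold lower. NGFR, the low-affinity neurotrophin receptor p75, was at 1.45 and 1.58 RPKM in control and at 0.268 and 0.325 RPKM in knockdown libraries, 5.10-fold lower. F2RL3, the thrombin-activated receptor PAR4, had means of 1.05 ± 0.068 RPKM in control and 0.154 ± 0.0087 RPKM in knockdown libraries (SD, n = 2 each), 6.82-fold lower. Control and knockdown values of these receptors did not overlap, which the rule fixes.

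The genes that work with these signalling proteins did not change as a block. Lists of such genes for 15 of the 30 were drawn up after the 30 were known, and limma tested genes with a mean of at least 1 RPKM. Over all lists, 90 of the 98 genes named were analysed and 60 tested, of which 13 fell, 12 rose and 35 did not pass. Over all 13627 genes tested, 21.8% were called lower (2964) and 14.7% higher (2000), at an adjusted p under 0.05. Median-ratio scaling removes the depth differences within a group and also rescales the knockdown libraries against the controls. With it the median SE went from 0.18 to 0.05 and the median log2 fold change over all genes tested from −0.07 to 0.005. The calls were 4072 lower (29.9%) and 4237 higher (31.1%) of 13602 genes. Under this scaling 21 genes of the lists fell and 30 rose, so 26 of the 35 that did not pass on the deposited scale passed there. Of the 25 calls in the lists, 11 held when each library in turn was left out: GLI3, SUFU, CD74, BDNF, AGPAT2, PRKACB, PPP2R1B, SEPHS1, TXNRD1, MBNL2 and RPS6KA1. The other 14 were lost without at least 1 library. With no filter on low values, 31636 genes entered the fit and 24 of the 25 calls were lost, at limma adjusted p of 0.0524 to 0.184. The exception was MBNL2 (0.0473).

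In the Hedgehog list, GLI3 and SUFU fell. GLI3, a transcription factor that acts mostly as a repressor without ligand, went from 1.33 and 1.69 to 0.584 and 0.540 RPKM (log2 −0.91 ± 0.21 SE, limma adjusted p = 7.18e-05). SUFU, the cytosolic protein that restrains GLI factors, went from 1.95 and 2.16 to 0.904 and 0.968 RPKM (log2 −0.83 ± 0.20 SE, limma adjusted p = 0.000153). HHAT, which attaches palmitate to the ligand, was tested and did not pass (log2 −0.17 ± 0.20 SE). The receptor PTCH1 was at 0.915 and 0.976 RPKM in control and 0.709 and 0.726 RPKM in knockdown libraries, too low for the test. SMO, the signal transducer, was listed at 0 in all 4 libraries, which is not read as absence, and GLI1, a standard readout of the pathway, was at or under 0.0340 RPKM in all 4.

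For NGFR, its ligand BDNF rose from 4.02 and 4.42 to 8.36 and 8.83 RPKM (log2 0.95 ± 0.18 SE, limma adjusted p = 7.96e-07). The co-receptor SORT1 was higher (log2 0.66) and SORCS2 lower (log2 −0.47) by the same test, but the first call was lost without control replicate 1 or either knockdown library and the second on leaving out any 1 of the 4 libraries. The receptors NTRK2 and NTRK3 were at or under 0.155 RPKM in every library. The other thrombin and trypsin receptors of the F2RL3 list were at higher levels. F2R (PAR1) was at 14.3 and 17.2 RPKM in control and 27.7 and 31.3 RPKM in knockdown libraries (log2 0.89), a call lost without knockdown replicate 2. F2RL1 (PAR2) was at 37.6 and 43.8 against 24.7 and 27.5 RPKM (log2 −0.63), a call lost without control replicate 2 or either knockdown library. For TSPAN12, none of its partners FZD4, LRP5 and NDP passed limma (log2 0.06, −0.04 and −0.24), nor did any at an unadjusted p under 0.05 (0 genes).

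Among the 6 regulators of intracellular signalling and survival, folds ran from 3.61 to 6.94. CDK14, a cyclin Y-dependent kinase that phosphorylates the Wnt co-receptor LRP6, was at 1.48 and 1.63 RPKM in control and at 0.286 and 0.246 RPKM in knockdown libraries, 5.83-fold lower. RTKN (rhotekin) was at 1.46 and 1.43 RPKM in control and at 0.371 and 0.357 RPKM in knockdown libraries, 3.98-fold lower. PPP2R2C, a regulatory B subunit of protein phosphatase 2A, was at 1.15 and 1.24 RPKM in control and at 0.176 and 0.169 RPKM in knockdown libraries, 6.94-fold lower. The largest fold of the 6 was that of PPP2R2C. PKIA, a peptide inhibitor of protein kinase A, had means of 1.09 ± 0.048 and 0.280 ± 0.023 RPKM, 3.88-fold lower. RPS6KA2, a ribosomal S6 kinase activated by ERK, had means of 1.16 ± 0.059 and 0.301 ± 0.043 RPKM, 3.85-fold lower. BCL2, which restrains mitochondrial cell death, had means of 1.23 ± 0.13 and 0.342 ± 0.038 RPKM (SD, n = 2 each), 3.61-fold lower.

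In the BCL2 list, 7 genes were tested by limma, none fell (0 also at an unadjusted p under 0.05) and 1 rose. This was PMAIP1 (NOXA), a BH3-only gene, at 9.18 and 11.2 RPKM in control and 16.8 and 18.9 RPKM in knockdown libraries (log2 0.78, limma adjusted p = 6.06e-05), a call lost without control replicate 1 or knockdown replicate 2. MCL1, another survival gene of the family, stood at 80.4 and 92.0 RPKM against 83.0 and 93.4 RPKM and did not pass (log2 0.03 ± 0.17 SE). Per transcript length, BCL2 RNA was far below MCL1 RNA in both groups. In the protein kinase A list, the catalytic subunit gene PRKACB rose from 3.24 and 3.53 to 6.50 and 7.18 RPKM (log2 0.92 ± 0.18 SE, limma adjusted p = 1.92e-06) and the other 4 tested did not pass. In the phosphatase 2A list, the scaffold subunit gene PPP2R1B rose from 6.26 and 7.13 to 14.9 and 16.8 RPKM (log2 1.19 ± 0.18 SE, limma adjusted p = 3.15e-10). PPP2R2D, another B subunit, was lower (log2 −0.46, limma adjusted p = 0.0352), a call lost on leaving out any of the 4 libraries. CCNY, CDK16 and CDK17 of the CDK14 list did not pass limma, and at an unadjusted p under 0.05 1 of them was higher and 0 lower. RPS6KA1, a sister kinase of RPS6KA2, fell from 3.05 and 3.48 to 1.71 and 1.69 RPKM (log2 −0.77 ± 0.18 SE, limma adjusted p = 0.00017).

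The 6 gene regulators had folds of 3.33 to 8.21. CIITA, the transactivator of MHC class II genes, was at 1.30 and 1.77 RPKM in control and at 0.372 and 0.385 RPKM in knockdown libraries, 4.05-fold lower. Its control replicates were the farthest apart of the 30 genes. ZNF75D, a zinc finger gene on the X chromosome, was at 1.27 and 1.32 RPKM in control and at 0.316 and 0.312 RPKM in knockdown libraries, 4.12-fold lower. MBNL3, a muscleblind splicing regulator, had means of 1.10 ± 0.044 and 0.310 ± 0.016 RPKM, 3.55-fold lower. AKNA, an AT-hook protein that organizes microtubules at centrosomes, had means of 1.17 ± 0.17 and 0.340 ± 0.017 RPKM, 3.45-fold lower. TSHZ1, a teashirt zinc finger homeobox gene, had means of 1.07 ± 0.0095 and 0.321 ± 0.049 RPKM (SD, n = 2 each), 3.33-fold lower.

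Of the 11 genes in the CIITA list, 6 were analysed and 3 tested. CD74, the MHC class II invariant chain, fell from 56.3 and 65.7 to 22.3 and 25.2 RPKM (log2 −1.34 ± 0.17 SE, limma adjusted p = 3.64e-13). RFX5, which binds class II promoters with CIITA, was at 11.9 and 13.4 against 6.51 and 7.21 RPKM (log2 −0.84, limma adjusted p = 1.49e-05), a call lost without knockdown replicate 1. RFXANK did not pass (log2 −0.22 ± 0.18 SE). HLA-DRB1 was listed at or under 0.0777 RPKM in all 4 libraries. RPS18, a ribosomal protein gene that lies in the same MHC region, was listed at or under 0.0178 RPKM, so no level of HLA-DRB1 is read from the table. Of the other muscleblind genes, MBNL2 rose from 4.17 and 5.09 to 15.9 and 16.5 RPKM (log2 1.71 ± 0.18 SE, limma adjusted p = 2.03e-20) and MBNL1 did not pass (log2 0.28 ± 0.18 SE). MBNL3 and MBNL2 thus moved in opposite directions, and MBNL2 had the smallest p of all the family relatives tested.

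**Figure D3:**
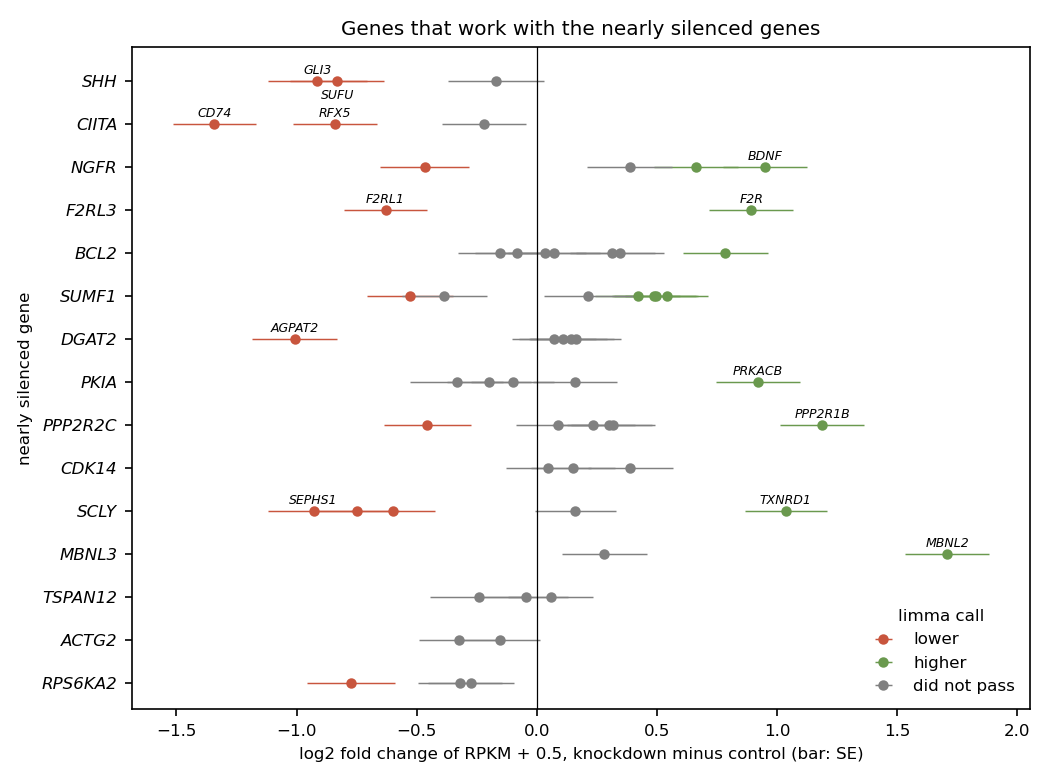
Log2 fold change of RPKM + 0.5 (knockdown minus control, bars are SE) of the 60 tested genes that work with 15 of the nearly silenced genes, 1 row per nearly silenced gene, coloured by limma call. Of the points, 13 are lower, 12 higher and 35 did not pass, with MBNL2 at 1.71 farthest to the right and CD74 at −1.34 farthest to the left.

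Enzymes and transporters made up 7 of the 30 genes, with folds of 3.60 to 8.17, and included the 2 highest control levels. PADI4, which converts arginine to citrulline in histones and other proteins, was at 2.21 and 2.60 RPKM in control and at 0.306 and 0.397 RPKM in knockdown libraries, 6.84-fold lower. Its reads numbered 275 and 324 in control and 27 and 35 in knockdown libraries. SUMF1, which makes the formylglycine residue that sulfatases need, was at 2.10 and 2.33 RPKM in control and at 0.294 and 0.352 RPKM in knockdown libraries, 6.87-fold lower. SCLY, the lyase that releases selenium from selenocysteine, was at 1.21 and 1.28 RPKM in control and at 0.147 and 0.158 RPKM in knockdown libraries, 8.17-fold lower. With 595 and 628 reads in control and 51 and 55 in knockdown libraries, it had the most control reads of the 18 genes for which reads could be recovered in all 4 libraries. ALDH3A1, an aldehyde dehydrogenase abundant in the cornea, was at 1.33 and 1.54 RPKM in control and at 0.283 and 0.377 RPKM in knockdown libraries, 4.36-fold lower. DGAT2, which makes triglycerides, had means of 1.27 ± 0.20 and 0.228 ± 0.015 RPKM, 5.56-fold lower. SLC45A4, a solute carrier, had means of 1.22 ± 0.055 and 0.331 ± 0.0028 RPKM, 3.68-fold lower. NIPAL1, a magnesium transporter-like gene, had means of 1.29 ± 0.19 and 0.358 ± 0.044 RPKM (SD, n = 2 each), 3.60-fold lower.

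The sulfatase genes that SUMF1 serves had mixed calls. Among the genes tested in that list, ARSB, IDS and SGSH were higher (log2 0.42, 0.49 and 0.50), GALNS was lower (log2 −0.53), and STS (log2 0.21 ± 0.18 SE) and the paralog SUMF2 (log2 −0.38 ± 0.18 SE) did not pass. These higher calls were lost on leaving out any of the 4 libraries, and that of GALNS without control replicate 2 or either knockdown library. In the selenium list, SEPHS1, a selenophosphate synthetase relative, fell from 2.55 and 3.04 to 1.18 and 1.27 RPKM (log2 −0.93 ± 0.19 SE, limma adjusted p = 7.84e-06). SEPHS2 (log2 −0.60) and the selenoprotein gene GPX1 (log2 −0.75) were lower too, but the first call was lost without control replicate 2 or either knockdown library and the second without control replicate 2 or knockdown replicate 1. TXNRD1, a selenoprotein gene that NRF2 also controls, rose from 45.6 and 53.1 to 95.9 and 107 RPKM (log2 1.04 ± 0.17 SE, limma adjusted p = 2.45e-08). GPX4 did not pass (log2 0.16 ± 0.17 SE). In the triglyceride list, AGPAT2, an acyltransferase of an earlier step, fell from 21.6 and 26.1 to 10.9 and 12.2 RPKM (log2 −1.01 ± 0.17 SE, limma adjusted p = 1.23e-07), and DGAT1, the other enzyme for the last step, did not pass (log2 0.07 ± 0.18 SE).

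The 6 remaining genes, of the cytoskeleton and of other functions, included TMEM121, ACTG2 and ASB14. CORO2B, an actin-binding coronin, was at 1.73 and 2.07 RPKM in control and at 0.363 and 0.304 RPKM in knockdown libraries, 5.70-fold lower, with 290 and 346 reads against 43 and 36. NHSL1, a regulator of cell migration through the WAVE complex, had means of 1.21 ± 0.12 and 0.241 ± 0.057 RPKM, 5.01-fold lower. FBF1, a component of the centriole's distal appendages, had a control value of 1.05 RPKM in both libraries and a knockdown mean of 0.331 ± 0.035 RPKM (SD, n = 2), 3.17-fold lower, the smallest fold of the 30. The widely expressed actins did not pass: ACTB had a log2 fold change of −0.16 ± 0.17 and ACTG1 of −0.33 ± 0.16 (SE). ACTA2, the vascular smooth muscle actin, was at 0.292 and 0.434 RPKM in control and 0.178 and 0.167 RPKM in knockdown libraries, too low for the test.

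With a filter at a mean of 1 RPKM over the 4 libraries, 5 of the 30 genes were in the model across all genes and 25 were not. The 5 were PADI4, SUMF1, SHH, HTR7 and CORO2B, with log2 fold changes on the log2(RPKM + 0.5) scale of −1.77, −1.72, −1.67, −1.54 and −1.52. They passed the filter through their control values and had been chosen by the same contrast, so these values describe them and carry no test. The scale understates the change of genes this low: the median over the 30 was −1.26 with 0.5 added, −2.04 with 0.1 and −0.88 with 1.

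Whether genes beside the 30 on the chromosome also fell was examined with the values of other genes. Where such a gene shares exon bases with one of the 30, its value may hold some of the same reads. The 30 lay on many chromosomes, with no more than 3 on any of them. The nearest protein-coding gene on each side gave 59 neighbours, of which 37 were expressed highly enough to be tested. By limma 10 fell (27.0%, beside 21.8% of all genes tested), 2 rose and 25 did not pass. Their median log2 fold change was −0.16, beside −0.07 over all genes. This share is near the background. With median-ratio scaling 17 of the 37 fell (45.9%, beside 29.9% of all genes) and 9 rose (24.3%, beside 31.1%), with a median log2 fold change of −0.09, and the difference of these shares from the background was not tested. On leaving out a library the count was 9 (control replicate 1), 4 (control replicate 2), 4 (knockdown replicate 1) or 5 (knockdown replicate 2). Of the 28 genes with a tested neighbour, 10 had one that fell. On the scale of the limma fit, a fall of 2-fold or more was seen in 2 neighbours, APPL1 and UBE2F-SCLY, and in 4.46% of all genes tested. Both share exon sequence with the silenced gene beside them. By the ratio of mean RPKM, ANP32A beside CORO2B also fell by more than 2-fold (2.31-fold), and it shares no exon bases with CORO2B. Among the 32 tested neighbours that share none, log2 fold changes ran from −0.97 to 0.57, 8 fell and 1 rose.

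The 6 neighbours with the smallest p were APPL1, UBE2F-SCLY, ANP32A, WDR54, TEDC1 and CLDN12. APPL1, an endosomal adaptor that binds adiponectin receptors, lies on the strand opposite to ASB14 and fell from 5.70 and 6.64 to 0.767 and 0.884 RPKM (log2 −2.33 ± 0.18 SE, limma adjusted p = 1.09e-34). It shares 296 exon bases with ASB14, which are 9.16% of the ASB14 exons. UBE2F-SCLY, a readthrough of UBE2F into SCLY, fell from 4.93 and 5.41 to 1.55 and 1.98 RPKM (log2 −1.33 ± 0.18 SE, limma adjusted p = 3.89e-12) and shares 19.7% of the SCLY exons. For these 2 loci, reads of overlapping transcripts could not be told apart from the deposited values. ANP32A beside CORO2B (log2 −0.97), WDR54 beside RTKN (−0.87) and TEDC1 beside TMEM121 (−0.80) fell without sharing exon bases, with limma adjusted p of 1.58e-06, 6.36e-06 and 6.71e-05. The call for TEDC1 was lost without control replicate 2 (adjusted p = 0.0502, limma) or knockdown replicate 1 (0.0585). CLDN12, a claudin that shares 2.94% of the CDK14 exons, was higher (log2 0.77, limma adjusted p = 8.91e-05), a call lost without knockdown replicate 2 (0.0644). With no filter on low values, the call of APPL1 was kept and those of the other 5 were lost.

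**Figure D4:**
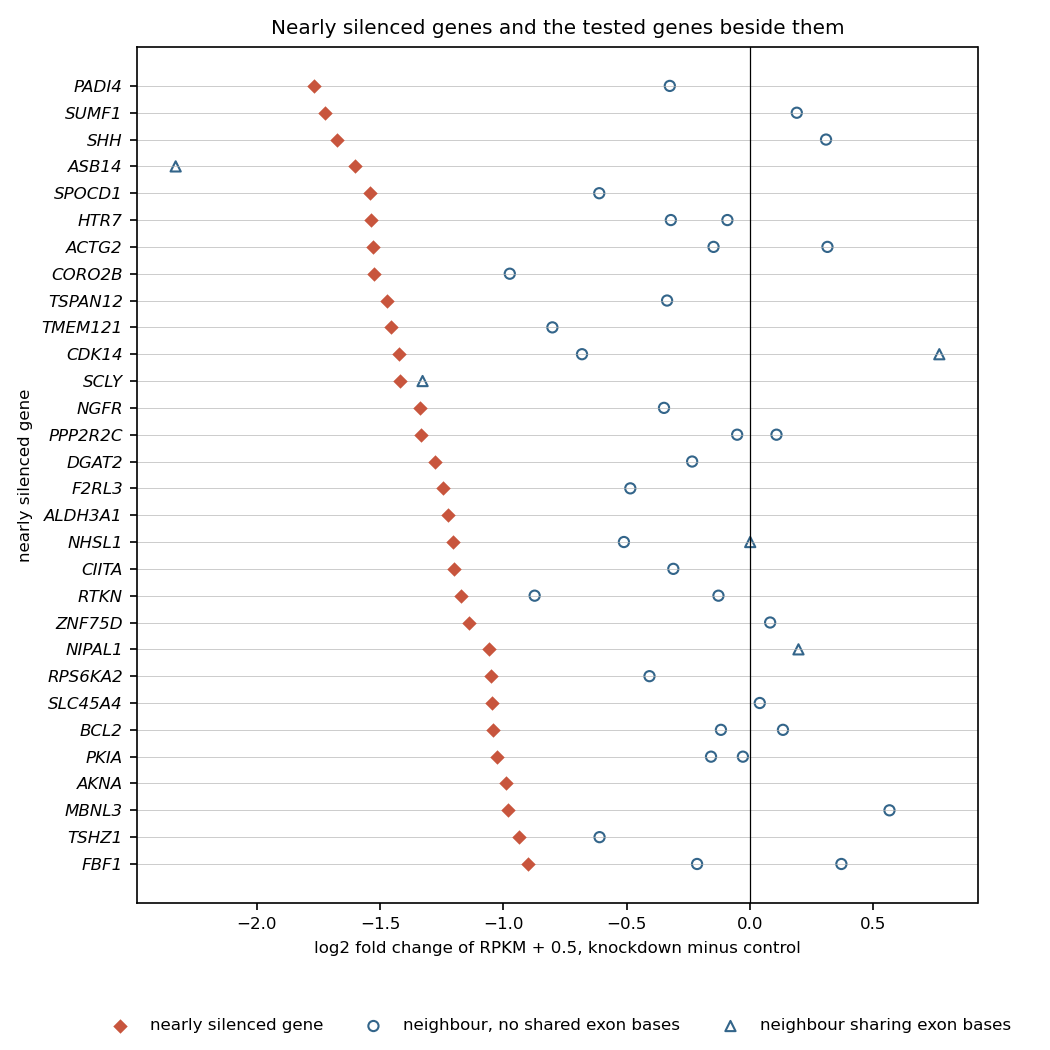
Log2 fold change of RPKM + 0.5 (knockdown minus control) of the 30 nearly silenced genes (red diamonds, 1 row each) and of the 37 tested genes beside them (blue circles, or triangles where exon bases are shared). Apart from APPL1 beside ASB14 and UBE2F-SCLY beside SCLY, the blue symbols lie between −0.97 and 0.77.

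Overlap with other annotated genes touched 14 of the 30, and 10 of these overlaps included a gene on the opposite strand. Whether the counting used strand is not stated in the labels. More than 10% of the exon bases were shared for 4 genes: FBF1 (49.6% with AC087289.3), NGFR (22.3% with AC015656.1), SCLY and CIITA (11.6% with DEXI). Values of these 4 are uncertain for that reason. DEXI, on the strand opposite to CIITA, was at 0.749 and 1.29 RPKM in control and 0.920 and 0.803 RPKM in knockdown libraries, so the 2 groups overlapped. Overlapping transcripts annotated as antisense that had values numbered 6, and their values are given as a description. The share of all genes with such values was not computed, so nothing is read from how many were lower. AC011676.2, antisense to SLC45A4, was at 0.368 and 0.245 RPKM in control and 0.173 and 0.289 RPKM in knockdown libraries, so its groups overlapped, and DGAT2-DT was listed at 0 throughout. AL354919.2, antisense to SPOCD1, was at 1.82 and 2.40 RPKM in control and at 0.0628 and 0.251 RPKM in knockdown libraries. AP003031.1, antisense to DGAT2, was at 3.18 and 3.68 RPKM against 0.445 and 0.222 RPKM. NGFR-AS1 was at 0.469 and 0.450 against 0.0828 and 0.0552 RPKM, and NHSL1-AS1 at 0.920 and 0.900 against 0.194 and 0.249 RPKM. Without strand, reads of a gene and of its antisense partner cannot be told apart in the shared bases.

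Family relatives were taken as other protein-coding genes whose symbol shares the letters before its first digit, a rule that also joins unrelated genes with similar names. It gave 173 relatives of 15 of the 30 genes, of which 108 were tested. By limma 23 fell (21.3%, beside 21.8% of all genes), 7 rose and 78 did not pass. Their median log2 fold change was −0.13. This share is near the background on the deposited scale. With median-ratio scaling 46 fell (42.6%, beside 29.9%) and 29 rose (26.9%, beside 31.1%), with a median of −0.05, and with the replicate block 45 fell (41.7%, beside 31.7%). The difference of these shares from the background was not tested. The count was 17, 8, 8 and 13 without control replicates 1 and 2 and knockdown replicates 1 and 2. Leaving out all relatives that share their letters with RPS6KA2, ribosomal proteins and other S6 kinases alike, 18 of 73 fell and 7 rose. Besides MBNL2, the relatives with the smallest p were CDK6, a G1 cyclin-dependent kinase (log2 1.22, limma adjusted p = 7.89e-11), ASB1 (log2 −1.20, 1.61e-10), ALDH3B1 (log2 1.06, 1.77e-07), ALDH1A3 (log2 −1.0, 6.72e-07) and ALDH3A2 (log2 −0.93, 1.23e-06), and with no filter on low values these 5 calls were lost.

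Gene lengths were compared as a description. Merged exons in GENCODE 29 had a median length of 6774.5 bases for the 30 genes, beside 5068 bases for the other 9223 protein-coding genes with both controls at or above 1 RPKM. Against 1748 of those genes with control means in the same range, the median was 5771 bases. The genomic span had a median of 73942 bases, beside 32461 and 42518 bases. Spans ran from 3600 bases in TMEM121 to 766468 bases in SUMF1, and exon lengths from 1904 bases in TMEM121 to 20757 bases in CIITA. Encoded proteins had a median of 465.5 residues, beside 464 and 519.5. None of these lengths was tested.

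Lists of genes with related functions are given as a description. They were drawn up with earlier results of these data known, so a share in them is no independent result. Of 17 tested genes of the ERK and AP-1 output list, 11 fell by limma (64.7%, beside 21.8% of all genes) and none rose, 0 also at an unadjusted p under 0.05, with a median log2 fold change of −0.77. They included MMP1 (log2 −3.69), HMGA1 (−2.27), DUSP4 (−1.18) and ETV5 (−1.11). RPS6KA2 among the 30, a kinase that ERK activates, is not in this list, and a link between them was not tested. Among 20 tested growth factors and cytokines, the kind of gene SHH is, 6 fell and 6 rose. Of 8 tested ion channel genes 1 fell and 2 rose, and of 4 tested synaptic and axon genes 1 fell. Over all genes tested, 21.8% were called lower and 14.7% higher. None of these lists names any of the 30 genes.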

How the data were processed

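RNA was measured in 4 libraries. The authors deposited RPKM values for 36525 Ensembl genes; per the submitters' processing notes, Bowtie 0.12.7 and hg19 were used, while the sources used here do not give the counting program or its use of strand. Unused columns numbered 0. Chromosomes 20, 21 and 22 held 0 genes of the table and were not analysed here. Gene types, exon lengths and overlaps came from GENCODE 29. From the steps between low RPKM values, 1 read was worth 1.41 times as much in knockdown as in control libraries, and reads were called whole within 0.1 read.

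RPKM values are not counts, so genes averaging 1 RPKM or more were tested with limma 3.58.1 (R 4.3.3) on log2(RPKM + 0.5), with a variance trend and Benjamini-Hochberg adjustment at 0.05. With 2 libraries against 2, an exact permutation test of a single value cannot go below p = 0.333. The script was tested on simulated data. Files were handled with Python 3.11.15 and pandas 2.3.3.

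The members and all lists were chosen with earlier results of these data known, and the lists of partner genes after the members were known. All 30 genes are named, with values of every library for the 14 with the highest control mean and the 8 with the lowest knockdown-to-control ratio, the 4 nearest genes on each side of each threshold, and the 6 neighbours and 6 relatives with the smallest p. Partner genes named were chosen after their values were seen. Alternatives tried were other pseudocounts, no filter, median-ratio scaling, no variance trend, a replicate block, other thresholds and each library left out. A few genes of the lists are not reported here.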

Additional observations from a re-analysis of the deposited data

How the results depend on the processing

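The number of nearly silenced genes depended on the limits: it was 8 with a knockdown limit of 0.2 RPKM, 64 with 0.5 RPKM, 2 with a control limit of 2 RPKM and 65 with genes of every type, and 32 to 53 on leaving out a library, with 53 without knockdown replicate 2. Median-ratio scaling gave 26 genes, of which 24 were among the 30, and RefSeq gene types gave 30. The median log2 fold change of the 30 was −1.26, −2.04 with a pseudocount of 0.1, −0.878 with 1, and −1.37 to −1.19 on leaving out a library. With no filter on low values, limma called 255 genes lower and 262 higher, 1 neighbour lower and 0 relatives lower (35 at an unadjusted p under 0.05). Median-ratio scaling gave 4237 higher genes, 17 lower neighbours and 46 lower relatives. Leaving out a library gave 1057 to 2007 lower genes, 759 to 1158 higher genes, 4 to 9 lower neighbours and 8 to 17 lower relatives. The fit that loses a library assumes that the lone sample of a group varies like the other group.

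The replicate block gave 4318 lower genes, 3109 higher genes, 15 lower neighbours and 45 lower relatives. The numbers are only shared: deviations of same-numbered libraries correlated at 0.03 over 2 pairs, and nothing in the labels pairs them. Of 770 values of 77 named genes under 10 alternatives, 643 kept their side of the threshold, 84 lost and 43 gained a call, and none that was called changed sign. Depth limits the lowest members: 3 reads in a knockdown library for TMEM121, and 81 to 628 control reads among the 18 genes with recovered reads.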

Other observations

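Transcripts of other types met the same thresholds in 35 cases, of which 11 had no entry in GENCODE 29, 5 were antisense, 4 lincRNA and 4 processed pseudogenes. Several overlap a protein-coding gene that was also lower in both knockdown libraries, though not every overlapping gene was. KLHL25P1, a pseudogene inside TGFBR2 on the opposite strand, was at 3.31 and 3.76 RPKM in control and 0.360 RPKM in both knockdown libraries, while TGFBR2, a TGF-beta receptor, was at 26.2 and 30.8 against 2.75 and 3.09 RPKM. WTAPP1, which overlaps MMP1 on the opposite strand, was at 2.39 and 2.62 against 0.283 and 0.192 RPKM, and MMP1, a collagenase, at 21.3 and 24.4 against 1.39 and 1.23 RPKM. WTAPP1 also overlaps MMP3, which was at 0.245 and 0.221 against 0.461 and 0.691 RPKM, and MMP10, which was at or under 0.0384 RPKM in all 4 libraries. OXCT1-AS1 was at 1.56 and 1.71 against 0.389 and 0.216 RPKM, and OXCT1, the enzyme that lets cells use ketone bodies, at 3.82 and 4.76 against 0.465 and 0.409 RPKM. CPVL-AS1 was at 1.35 and 1.53 against 0.173 and 0.347 RPKM, and CPVL, a carboxypeptidase, at 4.50 and 5.29 against 0.939 and 0.858 RPKM. CADM1-AS1 was at 1.11 and 1.01 against 0.373 and 0.224 RPKM, while the adhesion gene CADM1 kept 4.28 and 4.69 RPKM in the knockdown libraries from 7.51 and 8.82 RPKM in control. These transcripts were picked after their values were seen. Whether their reads came from the overlapping gene was not tested, since no label says whether counting used strand.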
